A study of Mus musculus with 2 samples.

Results

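Cycling T cells of the mouse omentum are described here, that is, T cells caught while copying their DNA or dividing. They were chosen by measured values: a cell had 200 to 7500 detected genes, a value above 0 for *Cd3e* or *Cd3d* (both chains of the CD3 complex that signals for the T cell receptor), 0 for the B cell gene *Cd79a* and the NK cell gene *Ncr1*, a *Jchain* value below 3.93 on the deposited natural log scale, and a value above 0 for at least 2 of the 4 cell cycle genes *Mki67*, *Top2a*, *Ube2c* and *Birc5*. Of 14422 barcodes, 3541 passed the T cell part of the rule (the T gate) and 167 passed all of it, 124 in WT (1.43% of 8686 barcodes) and 43 in *Postn*-DTR (0.750% of 5736).

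A T cell that meets its antigen or a growth-promoting cytokine leaves the resting state, licenses its replication origins, copies its DNA in S phase and separates its chromosomes in G2 and M phase. *Mki67* encodes the Ki-67 protein that coats mitotic chromosomes, *Top2a* the topoisomerase that untangles sister DNA molecules, *Ube2c* the ubiquitin-conjugating enzyme of the anaphase-promoting complex, and *Birc5* survivin of the chromosomal passenger complex. The T cells that descend from a dividing cell keep its rearranged receptor, so the V segments of the receptor transcripts mark which cells may be related.

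The omentum is a fold of peritoneal fat whose lymphoid clusters, the milky spots, house lymphocytes. The series holds 1 droplet-based single-cell RNA library from WT mice and 1 from *Postn*-DTR mice, and the cells of both groups were collected 5 days after diphtheria toxin (DT), so the controls had received DT too. In *Postn*-DTR mice, all heterozygous, the diphtheria toxin receptor was knocked in at the first coding exon of *Postn*, so that DT kills cells that use this promoter wherever they lie, and the study used the mice to remove a reticular stromal cell of the milky spots. Each library pooled 3 mice, the labels give no age, and no sort before capture is described. With 1 library per group no test between the groups exists, and no p-value or standard error is given. Intervals in parentheses are 95% intervals (exact Clopper-Pearson for a share, Katz for a ratio of shares, conditional binomial for summed transcripts) and cover counting error only, not differences between mice. Where a count is 0, the share it allows is given as 3 counts of the total.

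*Postn* (chr3:54361109-54391037, GRCm38) was found in 34 of 8686 WT barcodes (0.391%) and in 8 of 5736 *Postn*-DTR barcodes (0.139%), and in 0 of 124 WT and 0 of 43 *Postn*-DTR cycling T cells, which allows shares of up to 2.42% and 6.98%. The unit of all levels below is the unique molecular identifier (UMI), which stands for 1 captured transcript, per 10000 UMIs of the cell. The cycling T cells held a median of 13976 UMIs in WT and 16546 in *Postn*-DTR, whereas T cells with none of the 4 genes held 4547 and 4039.5. The libraries share 65 barcode sequences, of which 1 belongs to a WT cycling T cell and none to a *Postn*-DTR cycling T cell. Scrublet, a doublet caller, marked 1 cycling T cell in each library.

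The label was checked first against marker lists, and it did not hold for all 167 cells. A summed level of 30 or more over the 6 granulocyte genes *S100a8*, *S100a9*, *Elane*, *Mpo*, *Ltf* and *Camp* was found in 15 WT and 16 *Postn*-DTR cells. In these cells the median of that sum was 2461 in WT and 1900.0 in *Postn*-DTR, and the median of the sum over 12 T cell genes that the rule did not use (*Cd3g*, *Trac*, *Trbc1*, *Trbc2*, *Cd2*, *Cd5*, *Lck*, *Lat*, *Zap70*, *Cd28*, *Thy1* and *Cd247*) was 0.240 and 0. That T cell sum reached 47.6 in WT and 28.3 in *Postn*-DTR, above the lowest of the cells that were kept. A further 16 WT and 2 *Postn*-DTR cells were held back by a myeloid or a class II limit. The first was a summed level of 10 or more over *Cst3*, *Itgam* and *Spi1*, the second a level of 20 or more for the class II gene *H2-Ab1*. Some of the WT cells and the 2 *Postn*-DTR cells, with *H2-Ab1* at 1.49 and 0, were held back by the first limit only. All 16 and 2 are called the antigen-presenting set, a name that not each of them bears out. Here the median sum over the T cell genes was 8.69 in WT, with a range of 0 to 40.9, and the *Postn*-DTR cells had 7.46 and 31.2, so some of these cells carried as many T cell transcripts as cells that were kept. These limits were set after the cells had been seen. They hold back 25% of the WT and 41.9% of the *Postn*-DTR cycling T cells, beside 3.71% and 7.99% of the T gate cells with none of the 4 genes. What put *Cd3e* or *Cd3d* UMIs into these cells was not tested.

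**Figure D1:**
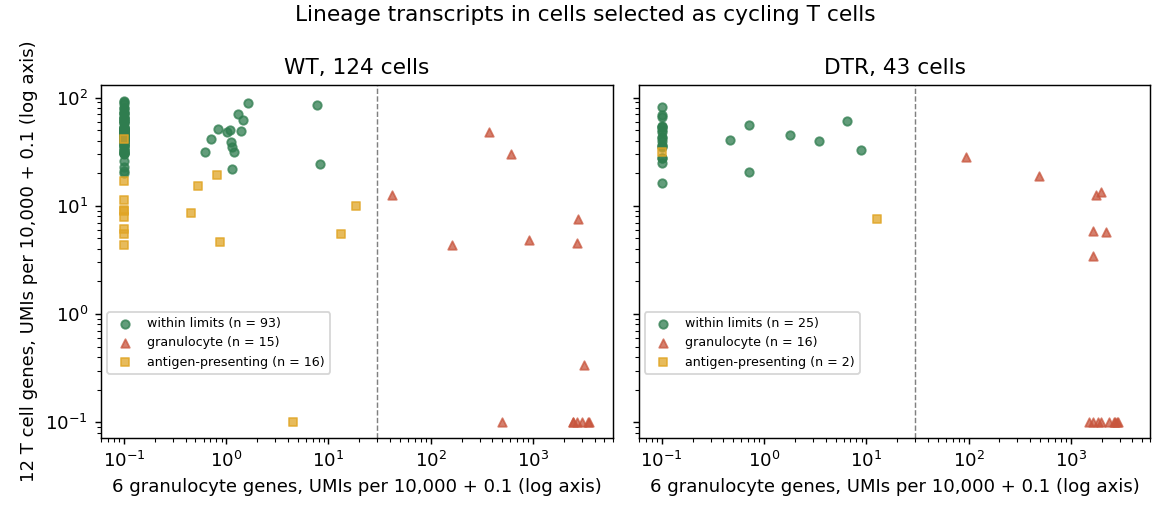
Summed level of 6 granulocyte genes (horizontal) against that of 12 T cell genes outside the rule (vertical), both in UMIs per 10000 with 0.1 added and on log axes, for each of the 124 WT (left) and 43 DTR (right) cells that passed the rule. The dashed line is the granulocyte limit of 30. The cells within the limits (green circles, 93 and 25) sit at the upper left, and the 15 and 16 granulocyte cells (red triangles) sit to the right of the line, where 7 and 9 of them are at 0 for the T cell genes. Yellow squares are the 16 and 2 cells held back by the myeloid or class II limit, labelled antigen-presenting.

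Within the limits were 118 cells, 93 in WT and 25 in *Postn*-DTR, and each of them carried T cell genes that the rule had not used. The sum over the 12 T cell genes ran from 19.98 to 92.8 in WT (median 45.5) and from 16.1 to 81.2 in *Postn*-DTR (median 42.0). Erythroid genes were at 0 in all 118 cells, and the granulocyte sum did not pass 8.15 in WT and 8.85 in *Postn*-DTR. Other lists were not at 0. The ILC2 list, part of which T cells also express, had medians of 2.17 and 1.56 and reached 56.7 and 93.2, the myeloid list had medians of 1.69 and 1.86 and reached 24.5 and 22.2, and the plasma cell list had medians of 0.790 and 1.56 and reached 22.3 and 5.90. Their part in the results was not tested. A list of 5 stromal genes was at 0 in 78 of 93 and in 20 of 25 cells, and reached 111 in 1 WT cell and 53.5 in 1 *Postn*-DTR cell. Every result below is given for the cells of the rule or for those within the limits, as stated.

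The number of the 4 genes found per cell set the threshold. Of the 3016 WT cells in the T gate, 2667 had none of the 4 genes, 225 had 1, 19 had 2, 22 had 3 and 83 had 4. Of the 525 *Postn*-DTR cells these counts were 438, 44, 9, 5 and 29. Just inside, the cells with 2 genes had a mean *Mki67* level of 6.39 in WT and 1.32 in *Postn*-DTR. Just outside, the cells with 1 gene had 0.755 and 1.17, a gene of the rule in both cases. *Cdk1*, the kinase that drives entry into mitosis and that the rule did not use, was found in 3 of 19 and 5 of 9 cells just inside and in 4 of 225 and 1 of 44 just outside. The *Jchain* limit took 1 cell from the *Postn*-DTR T gate and 0 from that of WT, and removed no cell with 2 or more of the 4 genes.

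A larger share of the omental T cells was cycling in the *Postn*-DTR library. By the rule, 4.11% of the WT T gate (3.43 to 4.88) and 8.19% of the *Postn*-DTR T gate (5.99 to 10.9) were cycling, a ratio of 1.99 (1.43 to 2.78). Within the limits the shares were 3.25% (93 of 2864, 2.63 to 3.96) and 5.33% (25 of 469, 3.48 to 7.77), a ratio of 1.64 (1.07 to 2.53). When the 4 cell cycle genes were thinned to 2000 UMIs in every cell, the shares were 3.02% and 6.24% by the rule and 2.39% and 3.96% within the limits, where the ratio was 1.66 (0.983 to 2.80). The same 2 of 4 rule gave 5.32% and 7.07% in B cells (*Cd79a*, no *Cd3e* or *Cd3d*, *Jchain* under the same limit) and 3.38% and 6.35% in NK cells (*Ncr1*, no *Cd3e* or *Cd3d*). In mature neutrophils, which do not divide, it gave 0 of 37 WT cells, which allows a share of up to 8.11%, and 2 of 347 *Postn*-DTR cells (0.576%).

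Which T cells were cycling was read from 5 genes. Cells were put into 1 class each, in this order: Treg with *Foxp3*, the transcription factor of regulatory T cells; CD4 with *Cd4* and no *Cd8b1*; CD8 with *Cd8b1* and no *Cd4*; a class with both *Cd4* and *Cd8b1*; γδ with *Trdc*, the constant region of the δ chain; a killer receptor class with *Klrd1*, which encodes CD94; and a class with none of the 5 genes. Within the limits the WT cycling T cells were 36.6% CD4 (34 cells, 26.8 to 47.2), 16.1% CD8 (15 cells, 9.32 to 25.2), 15.1% γδ (14 cells), 11.8% Treg (11 cells), 8.60% with none of the genes (8 cells), 6.45% killer receptor (6 cells) and 5.38% with both coreceptors (5 cells). The *Postn*-DTR cycling T cells were 36% CD8 (9 cells, 18.0 to 57.5), 20% CD4 (5 cells, 6.83 to 40.7) and 16% γδ (4 cells), with 2 cells each in the Treg, killer receptor and both-coreceptor classes and 1 cell with none of the genes. Within the limits CD4 cells thus led in WT and CD8 cells in *Postn*-DTR. By the rule the *Postn*-DTR cells were 9 CD4, 9 CD8 and 11 with none of the genes, beside 39, 16 and 20 in WT. Of the 17 *Postn*-DTR cells with no *Jchain* UMI 4 were CD4, 2 CD8 and 5 had none of the genes. CD8 cells did not lead in either of these sets. Among T cells with none of the 4 cycle genes the CD8 share was 15.8% in WT and 14.9% in *Postn*-DTR, and the CD4 share was 28.5% and 19.4%.

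The deeper a cell is read, the more often a coreceptor UMI is found, so detection was set beside depth and background. A *Cd8b1* UMI was found in 22.6% of the WT cycling T cells within the limits (21 of 93, median 11832 UMIs) and in 44.0% in *Postn*-DTR (11 of 25, median 15095 UMIs). A *Cd4* UMI was found in 52.7% and 32.0%, *Foxp3* in 11.8% and 8.0%, *Trdc* in 15.1% and 16%, and *Klrd1* in 21.5% and 32.0%. In cells with *Cd79a* and no *Cd3e* or *Cd3d*, plasma cells included, which should lack these genes (3308 in WT and 3200 in *Postn*-DTR, the *Cd79a* cells below), the highest of the 5 shares was 1.90% in WT (*Klrd1*, median 6733 UMIs) and 2.56% in *Postn*-DTR (*Cd8b1*, median 19687 UMIs). All 5 shares in the cycling T cells were above that background in both libraries. Thinned to 1000 UMIs, with no cycling cell left out, *Cd8b1* was found in 8 of 93 WT and 6 of 25 *Postn*-DTR cycling T cells, *Cd4* in 15 and 3, *Foxp3* in 3 and 0, *Trdc* in 6 and 0, and *Klrd1* in 7 and 0, where 0 of 25 allows up to 12%. At 2000 UMIs *Cd8b1* was found in 11 of 91 (12.1%) and 7 of 25 (28.0%).

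The cycling share of CD8 cells was higher in *Postn*-DTR, and the interval of the ratio lay above 1 both by the rule and within the limits. These intervals take each cell as an independent draw. Of the 9 *Postn*-DTR cycling CD8 cells 6 carried the same receptor segment, as given below. If these cells are related, the intervals are too narrow, which was not tested. Of the CD8 T cells within the limits, 3.42% (15 of 439, 1.92 to 5.57) were cycling in WT and 12.2% (9 of 74, 5.72 to 21.8) in *Postn*-DTR, a ratio of 3.56 (1.62 to 7.83). By the rule the ratio was 3.47 (1.59 to 7.57), and with the cycle genes thinned within the limits it was 3.77 (1.51 to 9.42). *Jchain*, a plasma cell transcript and a mark of free RNA in T cells, was found in 2 of 15 WT and 7 of 9 *Postn*-DTR cycling CD8 cells, beside 26.3% and 59.3% of the γδ T cells within the limits. The *Cd79a* cells, of which plasma cells make it themselves, carried it in 41.4% and 82.7%. The cycling CD8 cells were read deeper than the γδ cells, with medians of 13653 and 17750 UMIs against 4877.5 and 5393. Their *Jchain* shares are thus not at like depth. By the rule, with cells with any *Jchain* UMI left out, the CD8 shares were 4.11% in WT and 6.06% in *Postn*-DTR. Their ratio was 1.48 (0.351 to 6.22). Such a filter drops deeply read cells more often, and cycling cells were read deeper, so depth enters this ratio too. It took out most of the *Postn*-DTR cycling CD8 cells. The part of free RNA in the CD8 share was not tested.

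For each of the other classes within the limits the interval of the ratio reached both sides of 1, so that a difference was not detectable at these numbers of cells. CD4 cells within the limits cycled at 3.99% in WT (34 of 853, 2.78 to 5.53) and 5.21% in *Postn*-DTR (5 of 96, 1.71 to 11.7), a ratio of 1.31 (0.523 to 3.26). By the rule, with the other-lineage cells kept in, that ratio was 1.98 (0.990 to 3.98). Treg cells cycled at 4.42% (11 of 249) and 3.33% (2 of 60), a ratio of 0.755 (0.172 to 3.31). γδ T cells cycled at 3.72% (14 of 376) and 7.41% (4 of 54), a ratio of 1.99 (0.680 to 5.82), and killer receptor cells at 2.13% (6 of 282) and 3.17% (2 of 63). T cells with none of the 5 genes cycled least within the limits, at 1.29% (8 of 618) and 0.855% (1 of 117). That class is set by missing UMIs, and cycling cells were read deeper. With all genes thinned to 2000 UMIs and the other-lineage cells kept in, it cycled at 2.75% in WT and 7.14% in *Postn*-DTR. It was then not the lowest class in either library. By the rule 20 of 672 and 11 of 160 cells of that last class were cycling, a ratio of 2.31 (1.13 to 4.72), of which 8 and 1 cells lay within the limits. In the class with both coreceptors 5 of 47 WT and 2 of 5 *Postn*-DTR cells were cycling, a ratio of 3.76 (0.969 to 14.6).

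**Figure D2:**
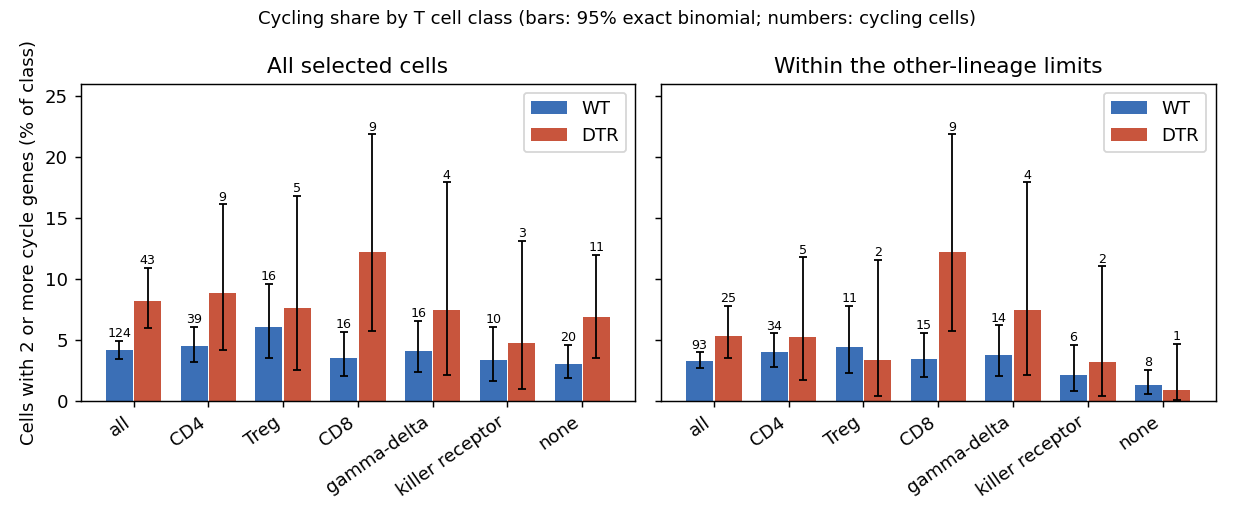
Share of each T cell class that was cycling (vertical axis, % of the class) in WT (blue) and DTR (red), for all cells of the rule (left) and for cells within the other-lineage limits (right). Bars start at 0, whiskers are exact 95% binomial intervals, and the number above each bar counts cycling cells. The class with both coreceptors (2 of 5 cells in DTR) is not drawn. Within the limits the CD8 bar is 3.42% in WT and 12.2% in DTR.

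The T cell receptor transcripts of the cycling CD8 cells were then read cell by cell. The V segment *Trbv12-1* of the receptor β chain (chr6:41113550-41114067, plus strand, GRCm38, GENCODE vM21) was singled out after its values had been seen, because it recurred in *Postn*-DTR, and *Trbv13-1* (chr6:41116007-41116468) because it recurred in WT. Both lie in the β chain locus close to relatives of similar sequence, *Trbv12-2* and *Trbv13-2*, and the UMIs of a pair could be split between its members in the counting. *Trbv12-1* and *Trbv12-2* share 88.3% of their aligned bases and *Trbv13-1* and *Trbv13-2* share 88.6%. The stretches of 120 bases below lie at the 3′ end of each germline segment, the end that joins the rest of the receptor, and are shown because they tell the members of a pair apart. They are bases 260 to 379 of 389 for *Trbv12-1*, 256 to 375 of 385 for *Trbv12-2*, 205 to 324 of 334 for *Trbv13-1* and 211 to 330 of 340 for *Trbv13-2* in the GENCODE vM21 transcripts, 5′ to 3′. Capitals mark the bases that differ within a pair, 11 in the first pair and 22 in the second.
Trbv12-1: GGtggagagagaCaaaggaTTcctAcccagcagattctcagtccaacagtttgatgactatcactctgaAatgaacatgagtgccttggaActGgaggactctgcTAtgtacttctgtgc
Trbv12-2: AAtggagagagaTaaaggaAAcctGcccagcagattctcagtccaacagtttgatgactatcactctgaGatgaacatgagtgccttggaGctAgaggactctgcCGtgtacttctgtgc
Trbv13-1: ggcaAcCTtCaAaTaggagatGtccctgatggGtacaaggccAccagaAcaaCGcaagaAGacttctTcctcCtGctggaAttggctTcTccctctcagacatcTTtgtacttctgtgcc
Trbv13-2: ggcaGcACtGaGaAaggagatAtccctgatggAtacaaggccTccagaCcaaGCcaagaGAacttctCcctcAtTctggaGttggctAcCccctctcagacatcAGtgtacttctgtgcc

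Most *Postn*-DTR cycling CD8 cells used 1 β chain segment. *Trbv12-1* was the leading β chain V segment in 6 of the 9 cells (66.7%, 29.9 to 92.5), with 8, 9, 11, 11, 12 and 23 UMIs. Of the other 3 cells, 1 carried *Trbv30* and 2 carried no β chain V segment UMI. Among the 60 *Postn*-DTR CD8 cells with none of the 4 cycle genes, 1 cell carried *Trbv12-1* (1.67%, 0.0422 to 8.94) and 18 different segments led. Among other *Postn*-DTR T cells with none of the cycle genes it was found in 9 of 56 of the killer receptor class (16.1%, 7.62 to 28.3) and 7 of 78 CD4 cells (8.97%, 3.68 to 17.6). Of the 5 *Postn*-DTR CD8 cells with exactly 1 cycle gene, 2 carried *Trbv12-1*.

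The α chain segment *Trav4-3* (chr14:53598828-53599410, plus strand) accompanied it. *Trav4-3* was found in 4 of the 6 *Trbv12-1* cells, with 2, 2, 2 and 1 UMIs. Of the remaining 2 cells, 1 had no α chain V segment UMI, together with 6 *Trbv13-1* UMIs, and 1 carried other α chain segments. Cells with both *Trbv12-1* and *Trav4-3* numbered 0 of 60 among *Postn*-DTR CD8 cells with none of the cycle genes (up to 5.0% allowed), 1 of 403 among all such *Postn*-DTR T cells and 2 of 2568 among those of WT. In the *Cd79a* cells, *Trbv12-1* was found in 1 of 3308 WT and 0 of 3200 *Postn*-DTR cells (up to 0.0938% allowed), and *Trav4-3* in 0 of both (up to 0.0907% and 0.0938%). No junction sequence was read here, so whether these cells belong to 1 clone was not tested.

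WT cycling CD8 cells used more segments, with a smaller group of their own. In the 15 cells 9 segments led. *Trbv13-1* led in 4 of them (26.7%, 7.79 to 55.1), with 24, 61, 83 and 86 UMIs, beside 36 of 406 CD8 cells with none of the cycle genes (8.87%). The same 4 cells carried 10, 37, 51 and 20 UMIs of its relative *Trbv13-2*, and no α chain V segment UMI was found in any of them, whereas such UMIs were missing in 1 of the other 11 cells. *Trbv12-1* led in 1 of 15 WT cycling CD8 cells and was found in 32 of 406 (7.88%) of the WT CD8 cells with none of the cycle genes.

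**Figure D3:**
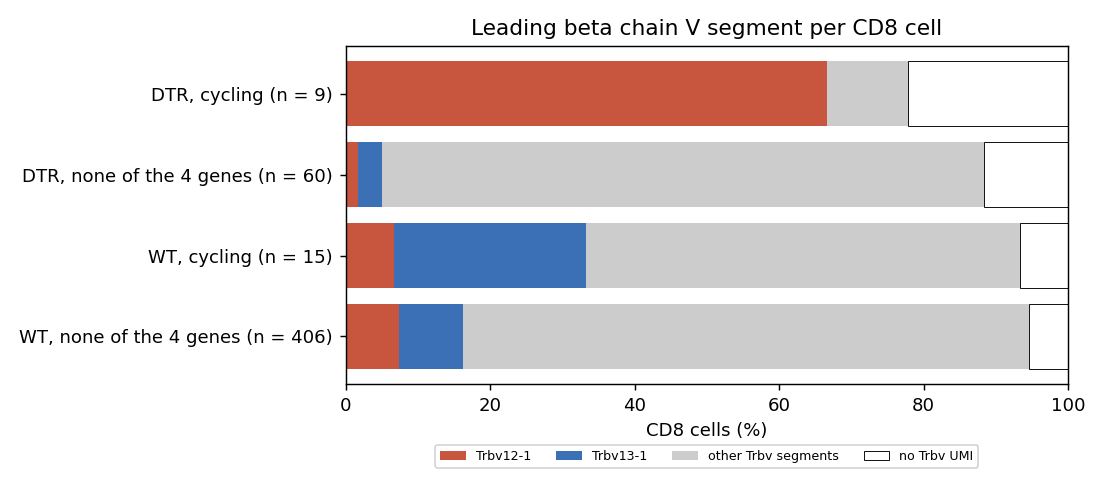
Share of CD8 cells within the limits (horizontal axis, %, from 0 to 100) by the β chain V segment with the most UMIs in the cell: Trbv12-1 (red), Trbv13-1 (blue), any other segment (grey) or no segment UMI (white). Trbv12-1 led in 6 of 9 cycling DTR cells and Trbv13-1 in 4 of 15 cycling WT cells.

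Over all classes within the limits, *Trbv12-1* was found in 7 of 25 *Postn*-DTR cycling T cells (28.0%, 12.1 to 49.4) and in 20 of 403 other T cells (4.96%), and in WT in 4 of 93 (4.30%) and 97 of 2568 (3.78%). Of the 91 pairs that the 14 *Postn*-DTR cycling cells with both chains can form, 7 shared an α and a β segment, and these pairs held 6 cells. In WT 12 of the 1485 pairs of 55 such cells did, and these held 15 cells. Most of the 7 *Postn*-DTR pairs lie among the 4 cells with both *Trbv12-1* and *Trav4-3* described above. The count of pairs is thus not a separate result. In the 34 cycling CD4 cells of WT 15 segments led, of which *Trbv20* had the most cells (5). In the γδ class, *Trbv12-1* was found in 6 of 376 WT and 0 of 54 *Postn*-DTR cells (up to 5.56% allowed).

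The difference between the libraries was smaller when the *Trbv12-1* cells were left out, which was done because of their values. The CD8 cycling share was then 3.47% in WT (14 of 404) and 4.62% in *Postn*-DTR (3 of 65), a ratio of 1.33 (0.394 to 4.51). The share over all T cells was 3.23% (89 of 2755) and 4.09% (18 of 440), a ratio of 1.27 (0.771 to 2.08). Leaving out cells by a segment that was frequent among the cycling cells of 1 library lowers that library's share by construction.

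The cycling CD8 cells carried effector transcripts in both libraries. *Nkg7*, a granule membrane protein of cytotoxic cells, was found in 14 of 15 WT and 8 of 9 *Postn*-DTR cells, with a mean level of 20.8 and 14.6. *Pdcd1*, the inhibitory receptor PD-1, was found in 6 of 15 and 7 of 9. *Gzmb*, the protease granzyme B, was found in 5 of 15 and 7 of 9, and 1 WT cell held 80 of the 115 WT UMIs. In WT all 4 *Trbv13-1* cells carried *Pdcd1* and *Gzmb*, against 2 and 1 of the other 11 cells. In *Postn*-DTR the 6 *Trbv12-1* cells carried *Pdcd1* in 6 and *Gzmb* in 4, and the other 3 cells in 1 and 3. The B-lineage background at these genes was at most 8.06% (*Pdcd1* in *Postn*-DTR). In the γδ T cells within the limits, which were read less deeply, *Pdcd1* was found in 42.3% in WT and 79.6% in *Postn*-DTR. There *Nkg7* was found in 29.3% and 11.1%, and *Gzmb* in 9.84% and 25.9%. CD8 cells with none of the cycle genes were not compared at these genes.

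The rest of the cell cycle program was read from gene lists that the rule did not name, in cycling T cells against T cells of the same library with none of the 4 genes. Since the cells were chosen by cell cycle genes of the same transcriptomes, these differences describe the selection and were not tested. Log2 ratios are on the log2(level + 0.1) scale, which understates low genes. Within the limits 4915 genes were ranked (at least 50 UMIs over the cycling T cells and found in at least 10% of those of 1 library), of which 316 (6.43%) were past 2-fold higher in cycling cells in both libraries and 11 (0.224%) lower. By the rule 6661 were ranked, with 438 (6.58%) higher and 30 (0.45%) lower, and there *Elane* and *Prtn3*, proteases of granulocyte precursors, were among the 8 genes with the largest ratios.

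S phase genes were high in the cycling T cells of both libraries. Of the origin licensing list, 10 of 12 ranked genes were past 2-fold higher in both libraries, with median log2 ratios of 2.13 in WT and 1.98 in *Postn*-DTR. *Mcm6* and *Mcm5*, subunits of the replicative helicase, had levels of 2.40 and 1.83 in WT cycling cells and of 2.77 and 1.53 in *Postn*-DTR ones, beside 0.512 and 0.163 in other WT T cells. The 2 exceptions were *Cdc45* and *Cdt1*, which passed 2-fold in WT (log2 ratios 2.69 and 1.20) and had 0.78 and 0.77 in *Postn*-DTR. All 24 ranked genes of the replication fork and nucleotide supply list were higher, with medians of 2.17 and 1.78. *Pcna*, the sliding clamp of DNA polymerases, went from 0.661 in other T cells to 3.23 in cycling T cells of WT and from 0.708 to 2.69 in *Postn*-DTR. *Rrm2*, the ribonucleotide reductase subunit made in S phase, went from 0.0296 to 3.39 and from 0.0179 to 2.17.

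G2 and M genes and chromatin genes were higher by more. All 15 ranked cyclins and mitotic kinases passed, with medians of 3.40 in WT and 2.80 in *Postn*-DTR. *Ccnb2*, cyclin B2, had a level of 2.91 in WT and 3.07 in *Postn*-DTR cycling cells, and *Cdk1* had 2.43 and 2.27. Of the spindle, kinetochore and cytokinesis list 33 of 34 passed, with medians of 3.19 and 2.92. *Cenpf*, a kinetochore protein of G2 and M, reached log2 ratios of 5.42 and 4.55. The exception was *Pttg1*, securin, with -0.15 and -0.33. All 21 ranked genes of the chromatin and condensation list passed, with medians of 3.04 and 2.65. *Stmn1*, a protein that destabilises microtubules, went from 0.188 to 13.3 in WT and from 0.227 to 8.98 in *Postn*-DTR. *Hmgb2*, a DNA-bending protein, went from 3.04 to 31.7 and from 2.85 to 23.8, and *Tubb5*, a β tubulin, from 3.36 to 22.8 and from 3.04 to 19.6. *Pclaf*, a partner of the PCNA clamp, had log2 ratios of 5.95 and 5.79, and of the ranked genes outside the rule none was as high in both libraries.

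The promoters of 4 genes are shown because they are known targets of cell cycle factors. *Top2a* and *Mki67* are genes of the rule and so were high by selection, and *Ccnb2* and *Mcm5* are members of the lists. Each is 250 bases before to 50 bases after the start of the gene, 5′ to 3′ on the strand of the gene, from RefSeq on GRCm38.p6. In *Top2a* (chr11:99024140-99024439), *Mki67* (chr7:135716330-135716629) and *Ccnb2* (chr9:70421505-70421804), all on the minus strand, capitals mark the cell cycle homology region, here the letters TTTGAA or TTCGAA on either strand. In *Mcm5* (chr8:75109259-75109558, plus strand) capitals mark 2 overlapping E2F-type matches, here TTTGGCGC, TTTCGCGC, TTTGCCGC or TTTCCCGC on either strand.
Top2a promoter: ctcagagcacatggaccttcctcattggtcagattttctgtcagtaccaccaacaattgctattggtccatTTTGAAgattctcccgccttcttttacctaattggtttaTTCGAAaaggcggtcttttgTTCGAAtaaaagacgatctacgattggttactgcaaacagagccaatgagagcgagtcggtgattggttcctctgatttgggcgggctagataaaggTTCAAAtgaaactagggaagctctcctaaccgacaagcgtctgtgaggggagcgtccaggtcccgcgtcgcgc
Mki67 promoter: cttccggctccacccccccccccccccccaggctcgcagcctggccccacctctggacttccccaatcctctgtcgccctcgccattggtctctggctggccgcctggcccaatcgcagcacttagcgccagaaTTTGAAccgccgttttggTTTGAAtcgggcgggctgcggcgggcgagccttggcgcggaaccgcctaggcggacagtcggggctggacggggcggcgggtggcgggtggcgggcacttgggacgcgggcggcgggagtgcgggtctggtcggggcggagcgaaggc
Ccnb2 promoter: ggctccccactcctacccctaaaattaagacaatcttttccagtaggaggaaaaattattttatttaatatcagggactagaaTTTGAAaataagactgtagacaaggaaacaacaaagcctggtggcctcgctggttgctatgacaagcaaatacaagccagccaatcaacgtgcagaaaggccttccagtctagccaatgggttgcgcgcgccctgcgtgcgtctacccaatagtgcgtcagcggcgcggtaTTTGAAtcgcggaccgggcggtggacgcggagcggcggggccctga
Mcm5 promoter: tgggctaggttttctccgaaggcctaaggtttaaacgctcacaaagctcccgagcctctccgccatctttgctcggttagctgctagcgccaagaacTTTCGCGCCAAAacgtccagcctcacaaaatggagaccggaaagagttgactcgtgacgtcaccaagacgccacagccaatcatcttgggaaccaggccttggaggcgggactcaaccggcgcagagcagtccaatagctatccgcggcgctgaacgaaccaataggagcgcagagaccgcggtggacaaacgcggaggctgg

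The homology region letters were found 4 times in the *Top2a* window, 2 times in that of *Mki67* and 2 times in that of *Ccnb2*. They were in 31 of the 43 promoters at hand of the G2 and M lists (72.1%), in 6 of 31 of the S phase lists (19.4%) and in 19.2% of all 32851 promoters. The E2F-type letters were in 3 of 43 (6.98%), in 12 of 31 (38.7%) and in 2.26% of all. CCAAT, searched on both strands, was in 72.1%, 61.3% and 37.4%. Of the 4 genes of the rule 3 had the homology region letters and 0 the E2F-type letters. A match is a description of these letters and shows no binding.

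Smaller parts of the lists other than those of S phase, G2 and M and chromatin genes passed 2-fold. Over all ranked genes 6.43% were higher and 0.224% lower in both libraries. Of the list of G1 cyclins, inhibitors and quiescence genes, 7 of 21 were higher in the cycling T cells of both libraries, and these were *Ccne1*, *Cdk2*, *E2f1*, *E2f2*, *Rbl1*, *Cdkn2c* and *Cdkn2d*, named after their values were seen. *Btg1*, an antiproliferative gene of resting lymphocytes, was lower, at 4.77 against 11.3 in WT and 3.17 against 9.87 in *Postn*-DTR. Of the growth and metabolism list 1 of 17 passed, the glycolytic enzyme gene *Tpi1*, and *Gapdh* had log2 ratios of 1.05 and 0.93. None of 17 activation genes, 13 Treg genes, 10 IL-17 and γδ genes, 5 helper genes and 12 heat shock and immediate early genes passed in either direction in both libraries. Of 17 cytotoxic genes, *Gzmk* passed, and 1 cell held 44.3% of its UMIs in *Postn*-DTR. *Tpi1*, *Gzmk*, *Cdt1* and *Pttg1* were likewise named after their values were seen.

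A few genes of the resting and naive state were lower in cycling T cells. Of 16 naive and homing genes *Il7r* and, named after its values were seen as *Txnip* was, *Ccr7* passed in both libraries, and the medians of the list were -0.40 and -0.44. *Il7r*, the receptor for the survival cytokine IL-7, had a level of 3.31 against 6.84 in WT and 3.70 against 9.97 in *Postn*-DTR. *Ccr7*, the lymph node homing receptor, had 1.22 against 2.61 and 0.420 against 1.95. Of 9 glucocorticoid-induced genes *Tsc22d3* and *Txnip* were lower, with log2 ratios of -1.10 and -1.01 in WT and of -1.07 and -1.47 in *Postn*-DTR. The 6 genes with the lowest ratios in both libraries were *Rabac1*, *Il4ra*, *Btg1*, *Bcl2*, *Rps27* and *Clec2d*. Of these *Bcl2*, the anti-apoptotic protein, had -1.19 and -1.74, and *Il4ra*, the IL-4 receptor chain, -1.47 and -1.26.

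**Figure D4:**
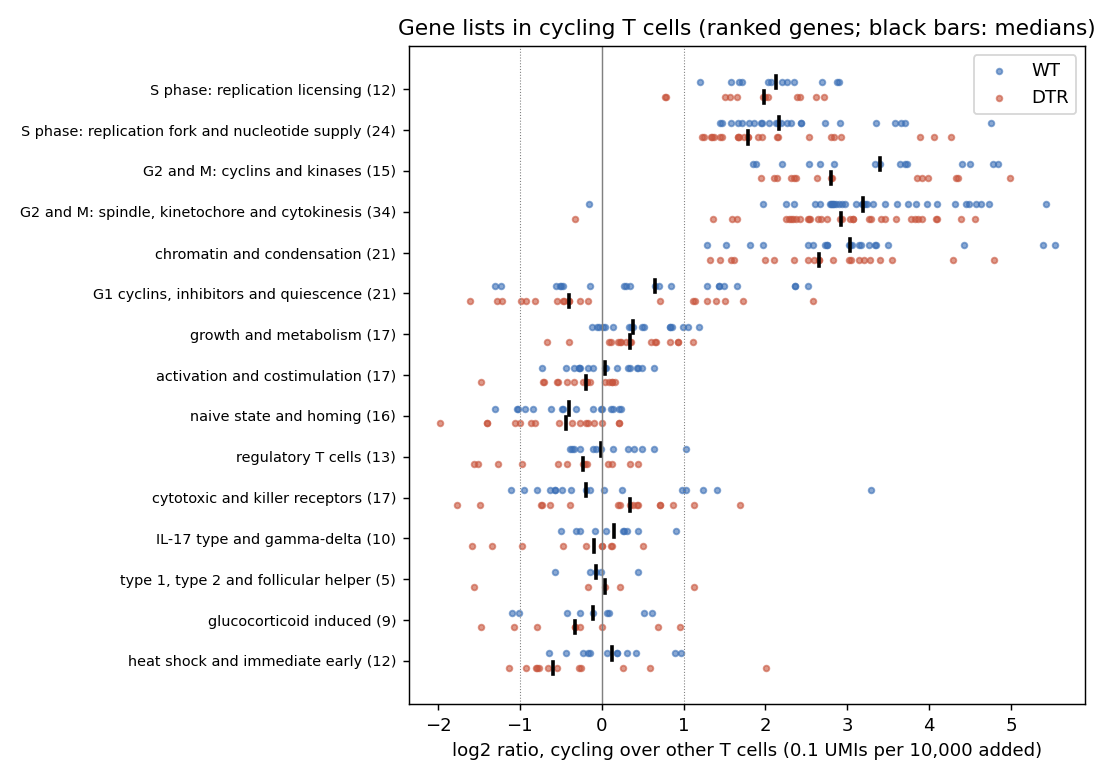
Log2 ratio of cycling over other T cells within the limits (horizontal axis, 0.1 UMIs per 10000 added) for the ranked genes of 15 lists, with their number in parentheses, in WT (blue) and DTR (red). Black bars are medians, the solid line is no difference and the dotted lines are 2-fold. The medians of the 5 upper lists, of S phase, G2 and M and chromatin genes, run from 1.78 to 3.40 and lie to the right of those of the other 10 lists in both libraries.

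The stage of the cycle was compared by 2 sums per cell, over 39 S phase genes and over 52 G2 and M genes, the 4 genes of the rule left out. A cell was put on the side whose sum, divided by its mean over all cycling T cells, was larger. This is a cut through a range and not a type. The means come from these same cells, so a side ranks the cells against each other. The shares below are thus not shares of cells in G2 or M phase. Within the limits, 50 of 93 WT cells (53.8%, 43.1 to 64.2) and 11 of 25 *Postn*-DTR cells (44.0%, 24.4 to 65.1) lay on the G2 and M side, and 16 and 3 cells lay within 0.5 (log2) of the border. By the rule the shares were 54.0% (44.9 to 63.0) and 51.2% (35.5 to 66.7). The S sum had a median of 49.8 in WT and 51.1 in *Postn*-DTR, beside 7.22 and 7.77 in other T cells. The G2 and M sum had a median of 76.3 and 55.6, beside 2.70 and 2.87.

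In WT the cells of each class lay on both sides. On the G2 and M side were 10 of 15 CD8, 17 of 34 CD4, 8 of 14 γδ, 4 of 11 Treg and 5 of 6 killer receptor cells in WT. So were 4 of 5 WT cells with both coreceptors and 2 of 8 with none of the 5 genes. In *Postn*-DTR these were 5 of 9 CD8, 1 of 5 CD4, 1 of 4 γδ, 1 of 2 Treg and 2 of 2 killer receptor cells. With both coreceptors it was 1 of 2 *Postn*-DTR cells, and with none of the genes 0 of 1. In 8 of 93 WT and 3 of 25 *Postn*-DTR cells both sums were at or under the level that 95% of other T cells do not pass, and 4 of the 8 and 3 of the 3 were CD4. They made up 4 of the 34 WT and 3 of the 5 *Postn*-DTR cycling CD4 cells. The side of cells with 2 low sums says little about their stage.

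**Figure D5:**
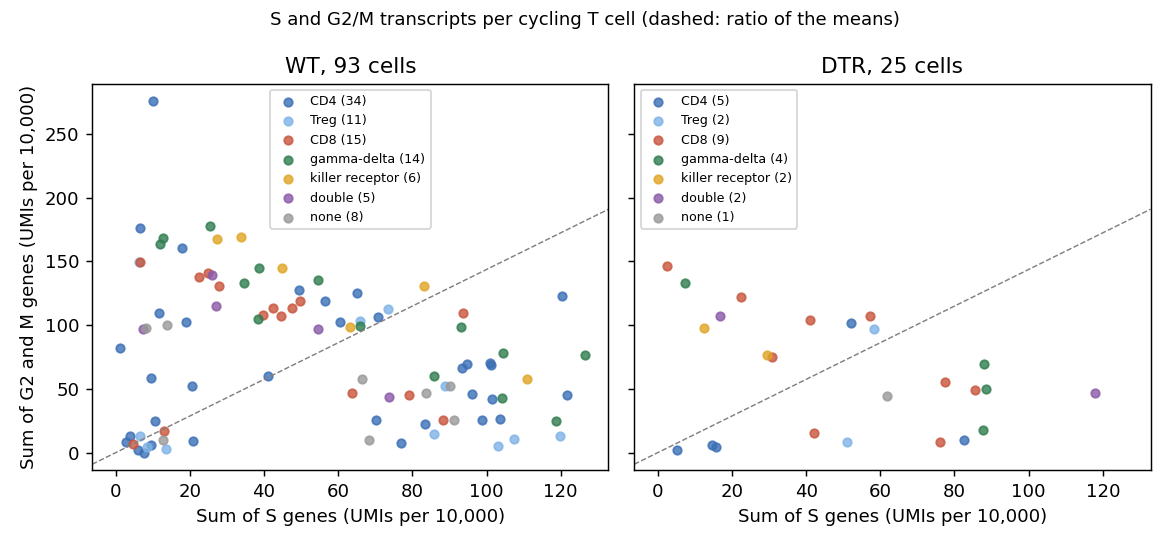
Sum of 39 S phase genes (horizontal) against sum of 52 G2 and M genes (vertical), both in UMIs per 10000 on linear axes, for each cycling T cell within the limits in WT (left, 93 cells) and DTR (right, 25 cells), coloured by T cell class with the number of cells in parentheses (purple stands for cells with both coreceptors and grey for cells with none of the 5 genes). The dashed line is the ratio of the means, and cells above it are on the G2 and M side (50 of 93 and 11 of 25). A group of cells near the origin is low in both sums.

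The levels in cycling T cells were then compared between the libraries. By the rule 135 of 6661 ranked genes (2.03%) were past 2-fold higher in *Postn*-DTR and 162 (2.43%) lower, with a median log2 ratio of -0.13. The split of the calls depended on the scaling, with 182 higher and 93 lower once ratios were centred on their median. By the rule the extremes were genes of the other-lineage cells. The 6 highest were *Mapk13*, *Acot1*, *Il1r2*, *Chil3*, *Fcnb* and *Cebpe*, and of these *Chil3*, a chitinase-like protein of myeloid cells, went from 6.96 to 34.9. The 6 lowest were the class II genes *H2-Aa*, *H2-Eb1*, *H2-Ab1*, *H2-DMa* and *H2-DMb1* and the invariant chain *Cd74*, which went from 18.8 to 0.543. Within the limits, *H2-Ab1* and *H2-Aa* had log2 ratios of 0.18 and 0.01, so neither kept its sign. The limits leave out cells with a high *H2-Ab1* level, so the class II difference shrinks by construction. Within the limits 46 of 4915 genes (0.936%) were higher and 123 (2.5%) lower, with a median of -0.09, and the values below are of these cells.

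The cell cycle lists differed little between the libraries. None of the 24 replication fork genes, 15 cyclins and kinases, 34 spindle genes and 21 chromatin genes was past 2-fold in either direction, with medians of -0.11, -0.31, -0.34 and -0.27. Of 12 licensing genes 1 was lower, *Cdc45*, a subunit of the replicative helicase (0.650 in WT, in 43 of 93 cells, and 0.123 in *Postn*-DTR, in 4 of 25). By the rule its log2 ratio was -0.57, against -1.75 within the limits. Of the genes of the rule, *Mki67* had a level of 10.2 in WT and 7.31 in *Postn*-DTR, *Top2a* 9.68 and 5.60, *Ube2c* 8.88 and 8.38, and *Birc5* 5.19 and 5.48.

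The subset genes, which also define the classes, differed as follows. *Cd8b1*, the β chain of the CD8 coreceptor, had a level of 1.57 in WT and 4.86 in *Postn*-DTR cycling T cells, a log2 ratio of 1.57 (from summed UMIs 1.18, 0.89 to 1.47). In other T cells its level was 2.21 and 1.63, in the opposite order. Without the *Trbv12-1* cells the log2 ratio of *Cd8b1* was 0.38. *Cd4* had 1.53 and 0.704, a log2 ratio of -1.02 (from summed UMIs -1.36, -2.09 to -0.71), and -0.64 without those cells. *Trdc* had 1.23 and 0.540, a log2 ratio of -1.05, although it was found in a similar share of cells, and *Foxp3* 0.418 and 0.340.

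Among the genes highest in *Postn*-DTR, several were also higher in the other T cells of that library. *Fkbp5*, a glucocorticoid-induced chaperone, had a level of 0.434 in WT and 1.53 in *Postn*-DTR cycling T cells, a log2 ratio of 1.61 (from summed UMIs 1.69, 1.13 to 2.24). In other T cells it had 0.273 and 0.908, and in the *Cd79a* cells 0.10 and 0.416. *Lgals3*, galectin-3, went from 0.417 to 1.81, and from 0.201 to 0.708 in other T cells. *Gsto1*, a glutathione transferase, went from 0.131 to 0.753, and from 0.162 to 0.502. *Bcl3*, an NF-κB cofactor, went from 0.263 to 0.920, and from 0.274 to 1.17. *Gramd1b*, a sterol transporter, went from 0.277 to 1.05, against 0.583 and 0.695 in other T cells, and 1 cell held 33.3% of the *Postn*-DTR UMIs. *Pdcd1* had 1.35 and 3.23 in cycling and 0.962 and 3.13 in other T cells.

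Counts by list follow, with 0.936% higher and 2.5% lower over all ranked genes. Of 9 glucocorticoid-induced genes, *Fkbp5* and *Ddit4* were higher and none lower, with a median of 0.36. *Ddit4*, an inhibitor of mTOR, went from 0.891 to 2.19 (log2 ratio 1.21, from summed UMIs 1.59, 1.17 to 2.0), and *Tsc22d3* from 0.779 to 1.58. Of 17 activation genes *Pdcd1* and *Il2ra* were higher and *Cd69* lower, with a median of 0.32, and 39.1% of the *Postn*-DTR *Il2ra* UMIs lay in 1 cell. Of 5 helper genes *Pdcd1* was higher, with a median of 0.95. Of 17 cytotoxic genes *Gzmb* was higher and *Gzma* and *Klrk1* lower, with a median of 0.54. Single cells carried much of this: 1 *Postn*-DTR cell held 52.9% of its *Gzmb* UMIs and 1 WT cell held 98.3% of its *Gzma* UMIs. Of 13 Treg genes *Il2ra* was higher and *Ikzf2* and *Izumo1r* lower, with a median of 0.08. Of 12 heat shock and immediate early genes *Atf3* was higher and *Egr1* and *Jun* lower, with a median of -0.14. None of 17 growth genes was past 2-fold (median 0.21). The genes in these counts for which no level is given were named after their values were seen, *Il2ra* included.

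Among the genes lowest in *Postn*-DTR, *Maf* and *Cers4* had levels in the other T cells that lay closer together. *Maf*, a transcription factor of IL-17-type, follicular helper and some regulatory T cells, had a level of 1.66 in WT and 0.466 in *Postn*-DTR cycling T cells, a log2 ratio of -1.64 (from summed UMIs -1.06, -1.84 to -0.37), and 1.32 and 1.33 in other T cells. *Cers4*, a ceramide synthase, was found in 50 of 93 WT and 4 of 25 *Postn*-DTR cycling T cells, with levels of 0.804 and 0.0965, and had 0.746 and 0.625 in other T cells. *St6gal1*, a sialyltransferase, had 0.516 and 0.0780, *Ipcef1* 0.592 and 0.120, and *Dtx1*, a modulator of Notch signalling, 0.476 and 0.0692. *Dtx1* was also lower in other T cells (0.666 and 0.121). *Il17a*, *Dapl1* and *E2f2* were also named after their values were seen. Of 10 IL-17 and γδ genes, *Maf*, *Il17a* and *Trdc* were lower, with a median of -0.36. Of 16 naive and homing genes *Ccr7* and *Dapl1* were lower, with a median of -0.53, and of 21 G1 and quiescence genes *E2f2* was lower, with a median of -0.57.

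The genes that the study named for its comparison of lymphocytes were examined last. *Tmsb10*, thymosin β10, an actin-binding peptide, had a level of 93.1 in WT and 56.5 in *Postn*-DTR cycling T cells, a log2 ratio of -0.72 (from summed UMIs -0.62, -0.69 to -0.55), and of 92.7 and 58.1 in other T cells. *Rps21*, a ribosomal protein, had 14.6 and 11.5, a log2 ratio of -0.35, and 26.3 and 15.98 in other T cells. *Cd52*, a small surface glycoprotein of lymphocytes, had 20.3 and 19.8, a log2 ratio of -0.03 (from summed UMIs -0.09, -0.22 to 0.03), beside 18.7 and 13.2 in other T cells. *Ly6d* was near its floor, with 2 UMIs in the 93 WT cells and 0 in the 25 *Postn*-DTR cells.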

How the data were processed

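Omental cells of WT and *Postn*-DTR mice were captured on the 10x Genomics Chromium Controller (5′ kit per the labels, 3′ kit per the study's methods), and the submitters' processing notes name Cell Ranger 6.0.0 and mm10. The authors deposited 1 matrix per library with values as the natural log of 1 plus UMIs per 10000. UMIs were recovered from the steps between these values, and 99.964% of WT and 99.902% of *Postn*-DTR values came out whole within 0.1 UMI. WT held 80640792 UMIs in 8686 barcodes and *Postn*-DTR 81120850 in 5736. Symbols were missing for 1078 of 19960 genes and were filled by gene ID, of which 19932 matched. Levels are means over cells of the linear values, and log2 ratios had 0.1 added. Genes with 50 UMIs over the cycling T cells and found in 10% of those of 1 library were ranked, V, D and J segments left out, and called at 2-fold. With 1 library per group no test was run. On simulated counts with 200 of 6689 genes changed 4-fold, 100% were called and 0.293% of the unchanged genes. All simulated cells of a library shared 1 profile, and the changed genes were abundant ones. The simulation thus held no differences between cells, and its rates are not error rates of the calls above. Doublets were marked with Scrublet and kept. Named genes were the rule and subset genes, up to 6 of the most abundant genes of each list, the 6 most different between libraries in each direction (genes with over 1/3 of the UMIs of the higher group in 1 cell left out), the 8 highest and 6 lowest by the weaker library's ratio of cycling to other T cells, the genes the study named, and *Fkbp5*. The members and lists were chosen with earlier results of these data known. Other gene filters, added values, scalings, thinning and single cells left out were tried. Python 3.11.15, NumPy 2.4.6, pandas 2.3.3, SciPy 1.17.1, Scanpy 1.11.5, Biopython 1.88 and matplotlib 3.10.9 were used.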

Additional observations from a re-analysis of the deposited data

How the results depend on the processing

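No paired analysis was possible because each group has 1 library and no replicate number. With 1 library per group and 25 *Postn*-DTR cells within the limits, differences between mice, batches and captures cannot be told apart from the genotype, and only large shares could differ beyond counting error. The other-lineage limits, the removal of *Trbv12-1* cells and the thinning of the cell cycle genes alone were added after seeing the data. Scrublet was run with a fixed limit of 0.3. Of 256 values of the comparisons under the alternatives 203 stayed within the interval of the reported value or, for counts of genes, within 1.5 times, 53 moved and 0 reversed. Shares in percent and counts of genes could only stay or move, also where the direction with more genes changed. A ratio counted as reversed only where its interval by the rule lay on 1 side of 1, which was so for the share over all T cells and for CD8, so the CD4 and γδ ratios below 1 given here count as moved. Where no cause is named below, it was not tested.

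The cycling share of WT was 3.38% with 4 other cell cycle genes, 1.97% and 2.77% with all genes thinned to 1000 and 2000 UMIs, 3.25% within the limits, 3.23% there without *Trbv12-1* cells, and 3.02% and, within the limits, 2.39% with the cycle genes alone thinned. That of *Postn*-DTR was 3.75%, 5.74%, 5.33%, 4.09% and, with the cycle genes thinned within the limits, 3.96%. Their ratio was 1.27 without *Trbv12-1* cells. Thinning all genes also removes coreceptor UMIs by construction. At 2000 UMIs the ratio was 0.491 for CD4, 6.77 for Treg and 0.606 for γδ. The CD4 ratio was 0.856 with the cycle genes thinned within the limits. The CD8 ratio was 1.48 by the rule without *Jchain* cells and 1.33 within the limits without *Trbv12-1* cells. The CD4 share of cycling cells at 1000 and 2000 UMIs was 11.8% and 21.5% in WT and 6.25% and 3.85% in *Postn*-DTR. The Treg share in WT was 5.88% and 2.53%. The γδ share at 1000 UMIs was 5.88% in WT and 0% in *Postn*-DTR, 21.2% in WT with the cycle genes thinned within the limits and 22.2% in *Postn*-DTR without *Trbv12-1* cells. The CD8 share in *Postn*-DTR was 41.2% with the cycle genes thinned within the limits.

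By the rule 135 genes were higher and 162 lower in *Postn*-DTR (45.5% higher). The counts were 50 and 19 with 0.5 added (72.5%), 207 and 347 with 0.02 added, 60 and 35 with at least 200 UMIs in 25% of cells (63.2%), 46 and 123 within the limits (27.2%), and 58 and 197 there without *Trbv12-1* cells (22.7%). Summed UMIs gave 83 higher, a T cell receptor constant gene in each cell 78 higher, a minimum of 10 UMIs 256 lower and centring 93 lower (66.2% higher). Leaving out, for each gene, the cell with the most of its UMIs gave 168 higher and 129 lower for WT (56.6%) and 98 and 304 for *Postn*-DTR (24.4%). Genes higher in cycling cells numbered 151 with 0.5 added and 244 with at least 200 UMIs. Genes lower numbered 95 on summed UMIs, 53 with 3 or more cycle genes required, 16 with a receptor constant gene, 69 with totals without immunoglobulin, mitochondrial and ribosomal genes, 51 and 7 with 0.02 and 0.5 added, 14 with at least 200 UMIs and 11 within the limits.

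Of 5076 values of named genes 15 reversed, 12 of them when the other-lineage cells were left out. Cycling over other T cells was then -0.43 for *Elane*, -0.44 for *Prtn3*, -0.0445 for *Cebpe*, -0.0185 for *Fcnb*, -0.81 for *H2-Aa*, -0.55 for *H2-Eb1* and -0.44 for *H2-Ab1* in WT, and -0.0569 for *Acot1*, -0.12 for *Cebpe* and -0.63 for *Chil3* in *Postn*-DTR, and *Postn*-DTR over WT was 0.0116 for *H2-Aa* and 0.18 for *H2-Ab1* (0.19 and 0.21 without *Trbv12-1* cells). *Elane* and *H2-Ab1* are among the genes that set the limits, so a fall of their levels within the limits is by construction. *Gzma* was 0.44 without the WT cell with the most of its UMIs.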
